A study of Mus musculus with 19 samples.

Results

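The MHC class I and immunoproteasome genes described here are 10 genes chosen by name for their place in the class I antigen presentation pathway: B2m, H2-K1, H2-D1, H2-Q10, Tap1, Tap2, Tapbp, Psmb8, Psmb9 and Psmb10. They are 10 of 25603 genes tested on hippocampal arrays. All 10 passed the filter on dim probes, and each was well above background on all 19 arrays at the probe that stood for it. The arrays covered 3 groups of 8-month-old mice: APP/PS1 mice given urolithin A (UA, n = 6), APP/PS1 mice given vehicle (n = 7) and wild-type (WT) littermates given vehicle (n = 6). UA is a small phenol that arises in the gut when microbes break down ellagitannins of foods such as pomegranate. It was given by gavage for 2 months from the age of 6 months, at a daily dose of 200 mg per kg dissolved in DMSO, and the other groups received DMSO alone. APP/PS1 mice carry a mutant amyloid precursor protein gene and a mutant presenilin gene behind mouse prion protein promoter elements, and deposit amyloid plaques with age. The labels give neither the background strain nor the sex.

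Class I molecules show fragments of a cell's own proteins to CD8 T cells. Proteasomes cut the proteins, and the immunoproteasome, in which 3 catalytic subunits are exchanged for Psmb8, Psmb9 and Psmb10, cuts them in a way that favours peptides fit for class I. The transporter Tap1-Tap2 carries the peptides into the endoplasmic reticulum, tapasin (Tapbp) bridges it to empty class I molecules, and each molecule pairs a heavy chain with the light chain B2m. Interferons raise most of these genes in many cell types. In the brain class I is low in most neurons, is found on microglia and vessel cells, and has been tied to synapse pruning in development.

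The RefSeq promoter table (build GRCm38.p6) held 300-base windows, from 250 bases before to 50 after a gene's start, for 9 of the 10 genes, all but Tap2, with 2 windows for H2-K1 and 10 in all. Of the 10 genes, 8 are on chromosome 17, where Psmb9, Tap1, Psmb8 and Tap2 are neighbours, B2m is on chromosome 2 and Psmb10 on chromosome 8. The windows were searched on both strands for TTTCACTT (a core bound by interferon regulatory factors), GGGATTCCC (a kappaB site), GAAANNGAA (part of an interferon-stimulated response element), TTCNNNGAA (a spaced palindrome bound by STAT factors), TGACG (the X2 box core) and GGGCGG (a GC box). Matches are shown in capitals below, and no matches overlap in these stretches.

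The first 3 stretches are shown because the heavy chain genes share them. TTTCACTT was found in the windows of H2-K1, H2-D1 and H2-Q10 and of no other gene of the 9, against 1.6% of all 32851 windows. GGGATTCCC was found in H2-K1 and H2-D1, against 0.353% of all windows. They are given 5′ to 3′ on the gene's strand, at chr17:34000416-34000465 (minus strand), chr17:35262916-35262965 (plus) and chr17:35469906-35469955 (plus).
H2-K1: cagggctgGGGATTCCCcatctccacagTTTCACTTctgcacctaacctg
H2-D1: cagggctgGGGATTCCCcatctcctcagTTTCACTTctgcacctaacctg
H2-Q10: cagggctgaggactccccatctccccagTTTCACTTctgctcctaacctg
H2-D1 differs from H2-K1 at 1 of 50 positions and H2-Q10 at 4 of 50, with 2 of those 4 inside the 9 bases that form the kappaB match of the others.

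The next 2 stretches hold matches of the light chain gene, at chr2:122147528-122147627 (plus strand), and of the gene Psmb8, at chr17:34198078-34198126 (plus). GAAANNGAA was found in B2m alone of the 9 genes, against 8.56% of all windows. TTCNNNGAA was found in Psmb8 alone, against 8.3%.
B2m: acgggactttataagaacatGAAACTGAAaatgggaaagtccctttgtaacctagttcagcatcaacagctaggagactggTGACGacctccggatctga
Psmb8: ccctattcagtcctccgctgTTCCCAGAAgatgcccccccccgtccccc

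The last stretch, chr17:34187306-34187580 on the plus strand, is shown because Tap1 and Psmb9 start from its opposite ends. Their starts lie 226 bases apart and face away from each other, and their windows share these 275 bases. It holds a GC box, read on the other strand (35.7% of all windows hold one), and a TGACG (20.8%).
Tap1 and Psmb9: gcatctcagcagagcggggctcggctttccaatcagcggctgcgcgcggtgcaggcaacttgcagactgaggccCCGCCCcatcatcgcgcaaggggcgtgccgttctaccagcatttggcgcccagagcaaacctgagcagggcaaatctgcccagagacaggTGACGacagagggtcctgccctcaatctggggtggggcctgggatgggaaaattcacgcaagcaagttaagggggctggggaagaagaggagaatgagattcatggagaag
TGACG was also found in the windows of H2-K1 and H2-D1, and again in that of B2m past the gene's start and outside the stretch shown, and a GC box was found in that of Tapbp. The Psmb10 window held none of the 6 motifs. A match of letters is a description of the sequence and not a site shown to be bound.

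A level here is the log2 ratio of a probe's signal to the 75th percentile over the probes of its array. A difference of 1 is a 2-fold change. Taken over single spots other than controls, which is a different measure, the 75th percentile ran from 664 to 1776 signal units. Precision is set by the number of arrays. There were 3 slides: slide 1 held 2 APP/PS1 vehicle and 6 WT arrays, slide 2 held 3 UA and 5 APP/PS1 vehicle arrays, and slide 3 held 3 UA arrays. By their signal for Xist and for genes of the Y chromosome, the females numbered 1 of 6 UA, 3 of 7 APP/PS1 vehicle and 1 of 6 WT mice. The brightest probe of Prnp, the promoter source of the transgenes, lay at 8.32 or above on UA arrays and at 8.47 or above on APP/PS1 vehicle arrays, against 7.05 at most on WT arrays, so the arrays split by genotype as labelled. Of the 2 tested genes listed for this check, Prnp passed as higher in APP/PS1 vehicle over WT and the other passed as lower. Markers of hippocampal neurons were present on all arrays at a mean level between 2.39 and 3.06. Choroid plexus markers, whose cells lie beside the hippocampus, varied most between arrays, from -1.97 to 3.83 (median 3.08) on UA arrays, -3.82 to 4.31 (median 3.03) on APP/PS1 vehicle arrays and -1.53 to 3.81 (median -0.69) on WT arrays.

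**Figure D1:**
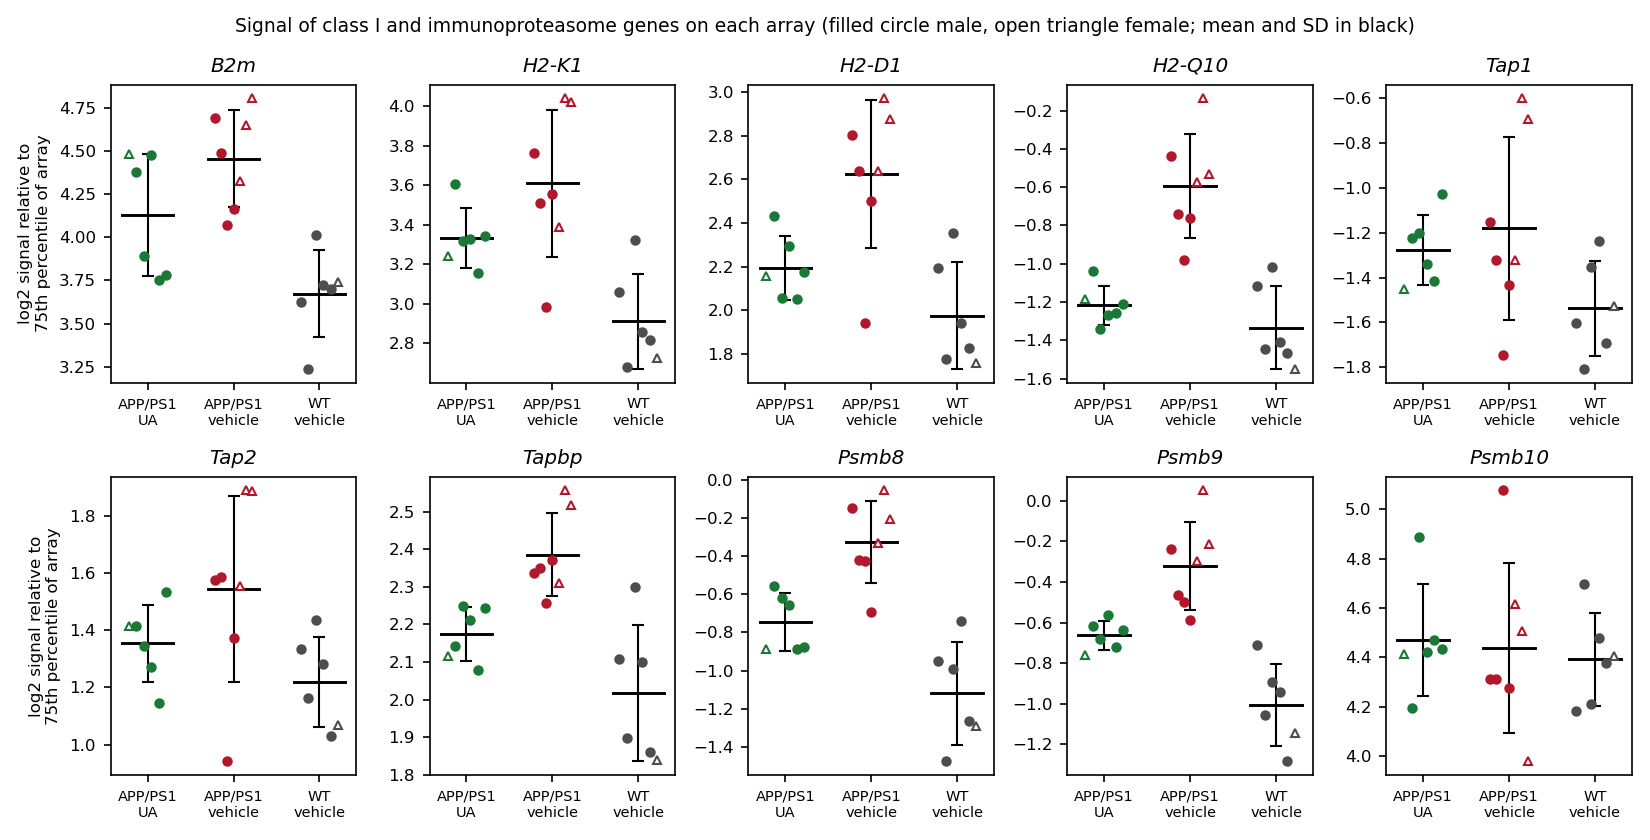
Level of each of the 10 genes on each array (vertical axis, log2 signal relative to the array's 75th percentile), with APP/PS1 UA, APP/PS1 vehicle and WT vehicle arrays from left to right, circles for males and open triangles for females, and the mean with its SD in black. B2m, H2-Q10, Psmb8 and Psmb9 show every APP/PS1 vehicle array above every WT array, and the UA arrays of H2-Q10 and Tapbp all lie below the APP/PS1 vehicle arrays.

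Class I genes and immunoproteasome subunits were higher in APP/PS1 vehicle hippocampus than in WT hippocampus. Of the 10 genes, 7 rose at a limma adjusted p under 0.05, where 2.68% of all genes tested did: B2m, H2-K1, H2-D1, H2-Q10, Tapbp, Psmb8 and Psmb9, by 1.29-fold to 1.73-fold. Tap1, Tap2 and Psmb10 did not pass. All 10 differences lay above 0 (50.4% of all genes), with a median of 0.67 against 0.0025 over all genes. In 4 genes the groups did not overlap, with the APP/PS1 vehicle arrays higher, as in 1.43% of all genes.

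B2m, the light chain of every class I molecule, had levels of 4.07 to 4.81 (median 4.49) on APP/PS1 vehicle arrays, against 3.24 to 4.02 (median 3.71) on WT arrays. Every APP/PS1 vehicle array lay above every WT array. The difference was 0.78 (SE 0.16, 1.72-fold, limma adjusted p = 0.0108).

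The classical heavy chain gene H2-K1 had levels of 2.98 to 4.04 (median 3.56) on APP/PS1 vehicle arrays, against 2.68 to 3.32 (median 2.84) on WT arrays. The groups met at their edges, where 6 of 7 APP/PS1 vehicle arrays lay above the highest WT array and replicate 3 did not. The difference was 0.70 (SE 0.15, 1.62-fold, adjusted p = 0.0148), and the gene's other probe gave 0.71 (SE 0.14).

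H2-D1, the other classical heavy chain, ran from 1.94 to 2.97 (median 2.64) on APP/PS1 vehicle arrays, against 1.76 to 2.36 (median 1.88) on WT arrays. Replicate 3 of the APP/PS1 vehicle group was again the exception, and lay below the WT mean. H2-D1 was 1.57-fold higher (difference 0.65, SE 0.14, adjusted p = 0.0170).

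H2-Q10 belongs to the Qa region of class I genes and is known as a secreted molecule of mouse liver. Its levels were -0.98 to -0.13 (median -0.57) on APP/PS1 vehicle arrays, against -1.55 to -1.02 (median -1.43) on WT arrays, with no overlap. The difference was 0.74 (SE 0.12, 1.67-fold, adjusted p = 0.00150). Of its 4 probes, 2 were not well above background on any array, and the other kept probe gave 0.51 (SE 0.14, adjusted p = 0.0525). At that probe the groups overlapped, with -2.06 to -1.46 on APP/PS1 vehicle arrays and -2.68 to -1.73 on WT arrays. Class I heavy chains are near-identical over long stretches and the probe sequences were not used here, so the share of each heavy chain's signal that comes from its relatives is uncertain.

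Of the transporter, Tap1 ran from -1.74 to -0.60 (median -1.32) on APP/PS1 vehicle arrays, against -1.81 to -1.24 (median -1.57) on WT arrays. Its groups overlapped over most of their range, since only the female replicates 6 and 7 and the male replicate 1 of the APP/PS1 vehicle group lay above all WT arrays. The difference, 0.36 (SE 0.16, adjusted p = 0.174), did not pass, nor did that at its other probe, 0.31 (SE 0.23).

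Tap2, the partner of Tap1, had a difference of 0.33 (SE 0.13, adjusted p = 0.131), at 1.54 ± 0.33 (SD, n = 7) in APP/PS1 vehicle and 1.22 ± 0.16 (n = 6) in WT. In this gene 5 of 7 APP/PS1 vehicle arrays lay above the highest WT array, while replicate 3, at 0.94, lay below the lowest. Tapbp, which encodes the bridging chaperone tapasin, had the smallest change among the genes that passed. It averaged 2.39 ± 0.11 in APP/PS1 vehicle and 2.02 ± 0.18 in WT, a difference of 0.37 (SE 0.08, 1.29-fold, adjusted p = 0.0135). Its other probe gave 0.31 (SE 0.09, adjusted p = 0.0624).

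Psmb8 encodes the immunoproteasome subunit that takes the place of Psmb5. It ran from -0.69 to -0.05 (median -0.33) on APP/PS1 vehicle arrays, against -1.48 to -0.74 (median -1.13) on WT arrays. The groups did not overlap, and the difference was 0.79 (SE 0.12, 1.73-fold, adjusted p = 0.000967).

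Psmb9, which takes the place of Psmb6, ran from -0.59 to 0.05 (median -0.30) on APP/PS1 vehicle arrays, against -1.28 to -0.71 (median -1.0) on WT arrays, again with no overlap. Its difference was 0.68 (SE 0.10, 1.61-fold, adjusted p = 0.000744). Tap1, on the other side of the shared sequence above, had a difference of 0.36. The interval of its estimate, 0.03 to 0.69, reached into that of Psmb9, 0.47 to 0.90. Both were measured on the same arrays, and a difference between these genes was not tested.

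Psmb10, the third exchanged subunit, which takes the place of Psmb7, had a different pattern. It ran from 3.98 to 5.08 (median 4.31) on APP/PS1 vehicle arrays, against 4.18 to 4.70 (median 4.39) on WT arrays. The WT range lay inside the APP/PS1 vehicle range. The difference was 0.048 with a 95% interval of -0.26 to 0.35 (adjusted p = 0.861), below the intervals of B2m, H2-K1, H2-Q10, Psmb8 and Psmb9.

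Slide and sex moved with the groups. On slide 1 alone, with 2 APP/PS1 vehicle and 6 WT arrays, the differences were 0.92 for B2m, 0.84 for Psmb8, 0.75 for H2-D1, 0.74 for H2-Q10, 0.73 for H2-K1, 0.66 for Psmb9 and 0.33 for Tapbp. The median of the 10 genes was 0.69. None passed in limma there, where 22 of all genes did. Of the 10 genes 8 had an unadjusted p under 0.05, as did 5182 of all 25603 genes. Choroid plexus marker levels were 3.13 and 2.58 on the 2 APP/PS1 vehicle arrays of slide 1. Of the WT arrays, replicate 3 stood at 3.81 and the others between -1.53 and 0.09, so on slide 1 these markers also moved with the groups. The part of choroid plexus in the slide 1 differences was not tested. With slide as a fixed block in the fit over all arrays 4 of the 10 genes passed (B2m, H2-Q10, Psmb8 and Psmb9), with a median of 0.68. Of all 25603 genes 240 passed in that fit. With slide as a random block 7 of the 10 passed, with a median of 0.66, and 2251 of all genes did. Among male arrays, 4 APP/PS1 vehicle and 5 WT, the median was 0.48, Psmb9 passed (0.53, adjusted p = 0.0426), and H2-Q10 (0.56, adjusted p = 0.0565) and Psmb8 (0.66, adjusted p = 0.0575) did not. Of all genes 245 passed among male arrays. With sex as a covariate 7 of the 10 passed, as did 1966 of all genes.

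**Figure D2:**
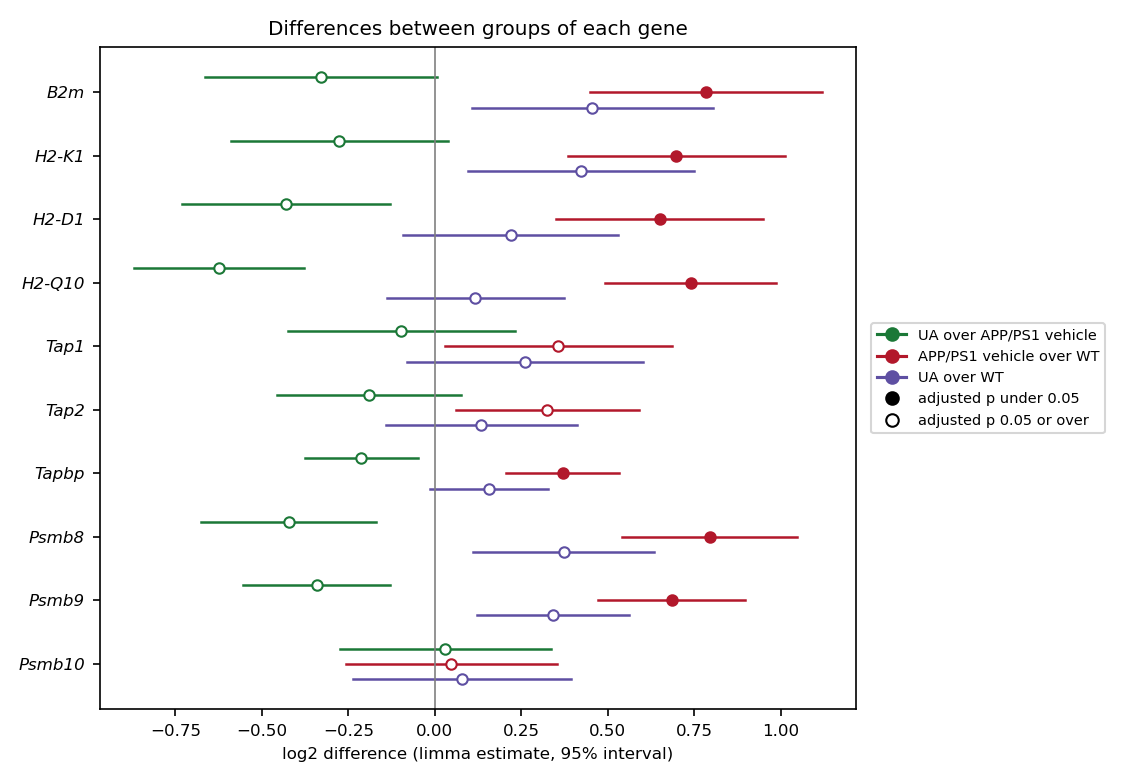
Differences between groups for each gene (horizontal axis, log2, with 95% intervals from limma), with UA over APP/PS1 vehicle above, APP/PS1 vehicle over WT in the middle and UA over WT below, filled where the adjusted p was under 0.05. The 7 filled points are all of APP/PS1 vehicle over WT, and Psmb10 lies near 0 in each comparison.

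UA arrays had lower levels of most of these genes than APP/PS1 vehicle arrays, but none passed the test. By limma with adjustment over all genes, 0 of 25603 genes passed (0%), and 5 of the 10 genes had an unadjusted p under 0.05 with a negative difference, where 9.61% of all genes did. Of the 10 differences 9 lay below 0 (51.7% of all genes), with a median of -0.30 against -0.0073 over all genes. This comparison and the one before share the APP/PS1 vehicle arrays. In H2-Q10 and Tapbp every UA array lay below every APP/PS1 vehicle array, as in 0.609% of all genes. For Tapbp the gap was narrow, from 2.25 on the highest UA array to 2.26 on the lowest APP/PS1 vehicle array. At the other kept probe of each gene the groups overlapped. UA against APP/PS1 vehicle arrays ran from -2.24 to -1.89 against -2.06 to -1.46 for H2-Q10, and from -2.49 to -2.39 against -2.53 to -2.03 for Tapbp.

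H2-Q10 had the smallest adjusted p of the 10. It ran from -1.34 to -1.04 (median -1.23) on UA arrays, against -0.98 to -0.13 (median -0.57) on APP/PS1 vehicle arrays. The difference was -0.62 (SE 0.12, limma adjusted p = 0.0853), and -0.33 (SE 0.14, adjusted p = 0.294) at the other kept probe. All 6 UA arrays lay below the APP/PS1 vehicle mean.

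Psmb8 ran from -0.89 to -0.56 (median -0.77) on UA arrays, against -0.69 to -0.05 (median -0.33) on APP/PS1 vehicle arrays, a difference of -0.42 (SE 0.12, adjusted p = 0.141). Psmb9 ran from -0.76 to -0.56 (median -0.66) on UA arrays, against -0.59 to 0.05 (median -0.30) on APP/PS1 vehicle arrays, a difference of -0.34 (SE 0.10, adjusted p = 0.150). In both genes all 6 UA arrays lay below the APP/PS1 vehicle mean, and 3 of them in Psmb8 and 5 in Psmb9 lay below the lowest APP/PS1 vehicle array.

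H2-D1 averaged 2.19 ± 0.15 (SD, n = 6) in UA and 2.63 ± 0.34 (n = 7) in APP/PS1 vehicle, a difference of -0.43 (SE 0.14, adjusted p = 0.189). Tapbp averaged 2.17 ± 0.072 in UA and 2.39 ± 0.11 in APP/PS1 vehicle, a difference of -0.21 (SE 0.08, adjusted p = 0.216). The remaining heavy and light chain genes had wider intervals that held 0: -0.59 to 0.038 for H2-K1 and -0.66 to 0.0065 for B2m. The other H2-K1 probe gave -0.41 (SE 0.14, unadjusted p = 0.00808, adjusted p = 0.206). B2m split within the UA group, where replicates 1, 2 and 4 lay between 4.38 and 4.49 and replicates 3, 5 and 6 between 3.76 and 3.89.

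For the transporter the differences were -0.19 (SE 0.13) for Tap2 and -0.10 (SE 0.16) for Tap1, with adjusted p of 0.474 and 0.788. Psmb10 differed by 0.031 (SE 0.15, adjusted p = 0.940). The interval for Tap1, -0.42 to 0.23, also holds differences as large as those of Psmb8 and Psmb9. Such an overlap cannot decide whether Tap1 acted otherwise, since the genes share arrays, and a difference between them was not tested.

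On slide 2 alone, with 3 UA and 5 APP/PS1 vehicle arrays, all 10 differences had the same sign as over all arrays, with a median of -0.22. None passed in limma, and 2 had an unadjusted p under 0.05, as did 1153 of all 25603 genes. H2-Q10 differed there by -0.59 and Psmb9 by -0.38. Among male arrays, 5 UA and 4 APP/PS1 vehicle, the median was -0.17, H2-Q10 differed by -0.49, and Tap1 had a difference of 0.17. None passed in limma, and 1 of the 10 had an unadjusted p under 0.05, as did 2915 of all 25603 genes. In the APP/PS1 vehicle group the 3 females averaged above the 4 males in every gene but Psmb10. For H2-Q10 the means were -0.41 in females and -0.73 in males. Another background correction, normexp on the median signal, moved 3 genes past the threshold in the lower direction, H2-Q10, Psmb8 and Psmb9 (adjusted p = 0.0277, 0.0348 and 0.0416), along with 1467 lower calls among all genes. With the choroid plexus marker level as a covariate H2-Q10 passed (-0.63, adjusted p = 0.0463), with 64 genes in all.

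UA arrays stood above WT arrays in all 10 genes on average (45.1% of all genes), with a median difference of 0.24, and no gene of the 10 passed, where 0.0937% of all genes did. An unadjusted p under 0.05 was found for 4 of the 10, all higher in UA, and for 4.19% of all genes in that direction. B2m averaged 4.13 ± 0.35 (SD, n = 6) in UA and 3.67 ± 0.25 (n = 6) in WT, a difference of 0.45 (SE 0.17, limma adjusted p = 0.455). H2-K1 differed by 0.42 (SE 0.16, adjusted p = 0.459), Psmb8 by 0.37 (SE 0.12, adjusted p = 0.404) and Psmb9 by 0.34 (SE 0.10, adjusted p = 0.343).

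In each of these 4 genes all 6 UA arrays lay above the WT mean, and 3 of 6 (4 of 6 for Psmb9) lay above the highest WT array. H2-Q10 was the gene of the 7 in which UA and WT were closest, with UA levels of -1.34 to -1.04 inside the WT range of -1.55 to -1.02. Its difference was 0.12 with a 95% interval of -0.14 to 0.37. By their means, UA lay between APP/PS1 vehicle and WT in 9 of the 10 genes, all but Psmb10. Neither the difference of UA from APP/PS1 vehicle nor that from WT passed the test in any of these 9. The share of all genes with UA between the other groups was not counted, so the 9 of 10 is a description only. No UA and WT arrays shared a slide, so slide and group cannot be told apart in this comparison except through the APP/PS1 vehicle arrays on slides 1 and 2.

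The rest of the pathway was described from lists of its other genes. Of 14 other class I and class I-like heavy chain genes tested (21 listed), 5 rose in APP/PS1 vehicle over WT and none fell. Of all genes 2.68% rose and 2.38% fell. The 5 were H2-M3, which presents bacterial peptides with a formyl group, by 1.47-fold, H2-Q7 by 1.71-fold, H2-Q2 by 1.64-fold, H2-T23, which encodes Qa-1, by 1.61-fold, and H2-T10. Their adjusted p ran from 0.00421 to 0.0384, and the median of the list was 0.36. H2-M3 had no overlap between the groups. None of these genes passed between UA and APP/PS1 vehicle, where H2-Q7 had the smallest p (-0.50, SE 0.16, adjusted p = 0.185).

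The genes whose level over the 19 arrays was most like the mean of the 7 that rose were also class I genes. Among 14888 genes with a plain symbol, the pseudogene H2-T-ps (r = 0.98), H2-Q8, H2-T23, H2-Q2 and H2-Q7 (each 0.96 or 0.97) had the highest Pearson correlations. After each group's mean was subtracted the same 5 led, with r from 0.93 to 0.96. These points share arrays and the probes may share sequence, so the correlations are a description only.

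Peptide loading and trimming genes as a group stood near 0, with a median of 0.029 in APP/PS1 vehicle over WT and 1 of 10 passing. That was Sec61g, a subunit of the channel through which proteins enter the endoplasmic reticulum, 1.34-fold higher (adjusted p = 0.0131). Of the 8 tested genes for proteasome activators and assembly factors none passed, and the smallest p was that of the assembly chaperone gene Psmg4 (0.18, SE 0.08, adjusted p = 0.163).

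The constitutive subunits that the immunoproteasome exchanges did not pass in APP/PS1 vehicle over WT. Psmb5, the counterpart of Psmb8, differed by -0.011 (SE 0.078), Psmb6, the counterpart of Psmb9, by 0.045 (SE 0.090), and Psmb7, the counterpart of Psmb10, by -0.12 (SE 0.11). In UA over APP/PS1 vehicle they differed by -0.14, -0.0094 and 0.032, with adjusted p of 0.378, 0.972 and 0.913.

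Among 13 transcription factor genes known to act on class I and immunoproteasome genes, 3 rose in APP/PS1 vehicle over WT and none fell. Of all genes 2.68% rose and 2.38% fell. Of the 13 differences 8 lay above 0 and 5 below, with a median of 0.14. Irf8, an interferon regulatory factor of myeloid cells, was 1.80-fold higher (0.85, SE 0.09, adjusted p = 2.55e-05) with no overlap, Irf9 was 1.46-fold higher (adjusted p = 0.0221) and Irf1 1.26-fold (adjusted p = 0.0435). Nlrc5, the class I transactivator, is named after its values were seen: it differed by 1.04 (SE 0.31, adjusted p = 0.0562). Its signal was clear of background on 6 of 7 APP/PS1 vehicle arrays and 4 of 6 WT arrays. Rfx5, also named after its values were seen, lay furthest below 0, at -0.40 (SE 0.13, adjusted p = 0.0832). In UA over APP/PS1 vehicle none passed, with Irf8 at -0.32 (SE 0.09, adjusted p = 0.139), and Irf8 was still 1.44-fold higher in UA than in WT (adjusted p = 0.0350).

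Interferon-stimulated genes had a median difference of 0.77 in APP/PS1 vehicle over WT, and 7 of 14 rose (2.68% of all genes), with all 14 above 0 (50.4%). Ifi27l2a rose 3.21-fold, the interferon regulatory factor gene Irf7 1.76-fold, Bst2, which encodes the virus tether tetherin, 2.07-fold and the guanylate-binding protein gene Gbp3 1.75-fold. In UA over APP/PS1 vehicle all 14 lay below 0, with a median of -0.43, and none passed. Usp18, which encodes a protease that removes Isg15 from proteins, had the smallest p there (-0.65, SE 0.23, adjusted p = 0.212).

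The interferons themselves gave little signal. Of 4 ligand genes on the arrays, Ifng, Ifnb1 and Ifna4 were well above background on no array and Ifna2 on at most 3. None of the 8 tested receptor and signalling genes passed in APP/PS1 vehicle over WT, with the smallest p for the receptor gene Ifngr1 (0.19, SE 0.06, adjusted p = 0.0619, groups not overlapping).

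**Figure D3:**
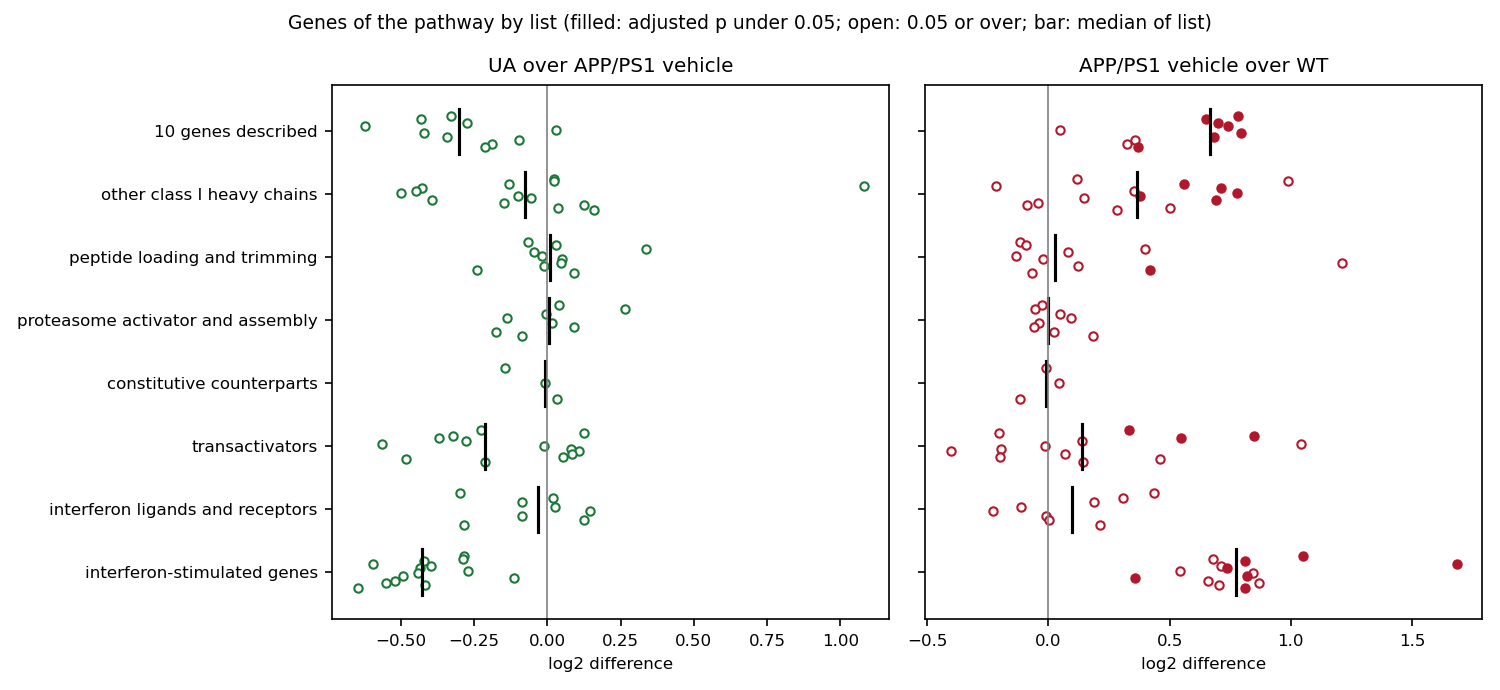
Differences (horizontal axis, log2) of every tested gene of 8 lists, for UA over APP/PS1 vehicle on the left and APP/PS1 vehicle over WT on the right, filled where the adjusted p was under 0.05, with the list's median as a bar. The medians of the 10 genes and of the interferon-stimulated genes lie furthest from 0 among the lists drawn, at 0.67 and 0.77 on the right and -0.30 and -0.43 on the left, and no point on the left is filled.

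A list of class I receptors and their relatives on other cells was mostly undetected, and 3 of 8 could be tested. Pirb, an inhibitory class I receptor of myeloid cells and neurons in mice, rose 1.69-fold in APP/PS1 vehicle over WT (adjusted p = 0.0290). Lilrb4a, which encodes an inhibitory myeloid receptor not established as a class I receptor in mice, rose 2.07-fold in APP/PS1 vehicle over WT (adjusted p = 6.66e-06) and was 1.75-fold higher in UA than in WT (adjusted p = 0.000896). The natural killer receptor genes Klrd1, Klrc1 and Klrk1 were well above background on at most 1 array.

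Markers of the cells that could carry class I were described beside these genes. In bulk tissue, more cells of a type and more RNA per cell cannot be told apart. Microglia markers rose in 6 of 10 genes in APP/PS1 vehicle over WT, where 2.68% of all genes rose. Their mean level was 2.17 to 2.43 on APP/PS1 vehicle arrays, against 1.69 to 1.94 on WT arrays, with no overlap. Markers of plaque-associated microglia rose in 6 of 9, among them Trem2 at 3.11-fold, and their mean level was 2.50 to 3.23 on APP/PS1 vehicle arrays, against 1.24 to 1.62 on WT arrays. On UA arrays these 2 lists lay at 1.94 to 2.29 and 2.53 to 2.98. The part of microglia in the class I differences was not tested.

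T and natural killer cell markers were detected in part. Cd3e, a chain of the T cell receptor complex, and Prf1, which encodes perforin, were well above background on all 19 arrays, while Cd8a was on at most 1 and Gzmb and Ncr1 on none. None of the 8 tested passed in any comparison (smallest adjusted p = 0.102, Gzma, APP/PS1 vehicle over WT). In APP/PS1 vehicle over WT all 8 differences lay above 0, with a median of 0.46, and 5 had an unadjusted p under 0.05 (Gzma, Prf1, Cd3e, Nkg7 and Cd3d), where 11.6% of all genes did in that direction. In UA over APP/PS1 vehicle 4 of the 8 lay below 0. Within groups the correlation of their mean level with the 10 genes over 19 arrays was 0.48 to 0.68 in 9 of them and -0.49 for Psmb10. In the same 9 genes it was 0.47 to 0.87 for interferon-stimulated genes, 0.50 to 0.87 for the transcription factor genes and 0.48 to 0.70 for plaque-associated microglia markers. It was 0.24 to 0.67 for vessel markers, 0.25 to 0.67 for blood markers and 0.05 to 0.63 for microglia markers. These values describe points that share arrays and scaling. The part of T and natural killer cells in the class I differences was not tested. The mean level of their markers was -3.84 to -3.47 on UA arrays, -3.91 to -3.11 on APP/PS1 vehicle arrays and -4.60 to -3.69 on WT arrays. Vessel markers (0 of 10), blood markers (0 of 6), meninges markers (0 of 6) and B cell markers (0 of 2) did not pass either, while the astrocyte markers Gfap and Aqp4 rose in APP/PS1 vehicle over WT.

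Choroid plexus markers did not pass (0 of 8), but their median difference was 1.57 in APP/PS1 vehicle over WT and their level varied within groups together with most of the 10 genes. Within groups the correlation over 19 arrays was 0.75 for H2-K1, 0.72 for H2-D1, 0.61 for Tap1, 0.59 for Tap2, 0.55 for Tapbp, 0.53 for H2-Q10, 0.38 for B2m, 0.34 for Psmb9, 0.25 for Psmb8 and -0.75 for Psmb10. With the marker level as a covariate 7 of the 10 genes passed in APP/PS1 vehicle over WT, and the median of the 10 was 0.54. Of all 25603 genes 1356 passed in that fit, 867 of them higher.

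**Figure D4:**
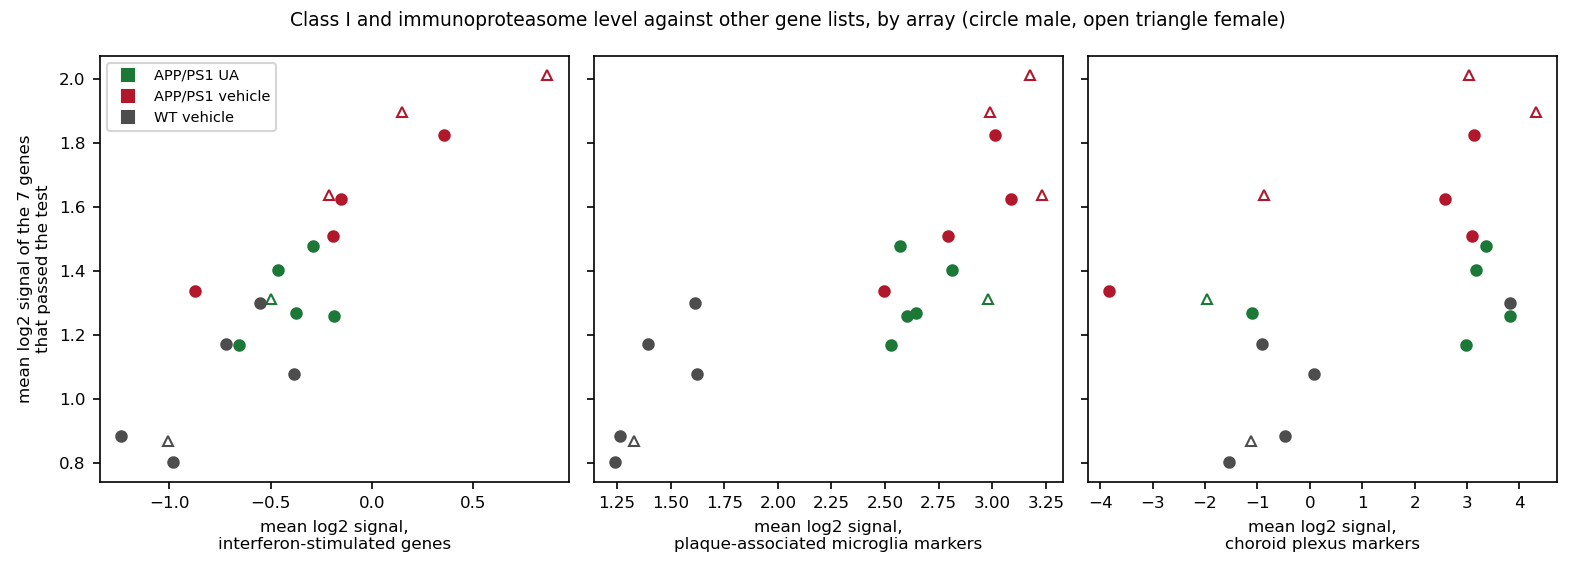
Mean level of the 7 genes that rose (vertical axis) against the mean level of interferon-stimulated genes, plaque-associated microglia markers and choroid plexus markers (horizontal axes), all as log2 signal relative to the array's 75th percentile, with 1 point per array. The lowest APP/PS1 vehicle array, at 1.34, is also the lowest of its group in all 3 lists, and the highest, at 2.01, has the highest interferon-stimulated level.

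Single arrays ran through the whole set. In the APP/PS1 vehicle group replicate 6, from a female, was the highest in 8 of the 10 genes and replicate 3, from a male, the lowest in 7. In the WT group replicate 3, the only WT array with a choroid plexus marker level above 1, was the highest in 6. UA replicate 5 was the lowest of its group in 6. The mean of the 7 genes that rose was 1.17 to 1.48 on UA arrays, 1.34 to 2.01 on APP/PS1 vehicle arrays and 0.80 to 1.30 on WT arrays, so 1 APP/PS1 vehicle array lay within the UA range.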

How the data were processed

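Hippocampal RNA of 19 mice was hybridised to Agilent arrays, 1 array per mouse, taking each array as 1 mouse because the group sizes equal those of the series' design text. Each deposited scanner file gives the intensity of every spot, as extracted with Agilent Feature Extraction 12.0.3.1, per the file headers, and background-subtracted and dye-normalized within each array by the authors' run of a protocol for 2-colour arrays. The processed values that the authors deposited for the series are a score, which matched the log10 processed green intensity centred and scaled by its SD per array to within 0.005. Its column medians ran from -0.28 to -0.17.

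Control spots (3671 of 62976) and non-uniform spots were left out and spots of a probe averaged. Levels were log2 of processed green intensity minus each array's 75th percentile. Probes well above background on at least 6 arrays were kept, and the brightest stood for a gene. Accessions were matched to RefSeq symbols. Groups were compared in 1 limma 3.58.1 fit (R 4.3.3), 2-sided, with Benjamini-Hochberg adjustment over 25603 genes and calls at an adjusted p under 0.05. The fit was tested on simulated data with independent noise for each gene. Those data held no slide, sex or choroid plexus effects, so they cannot speak to them.

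The 10 genes and all lists were chosen with earlier results of these data known. Named genes beyond the 10 were up to 4 passing genes per list and comparison by p, or the gene of smallest p, with the constitutive subunits in full and the 5 genes most like the mean of those that passed. Other settings covered scaling, filters, probes, slide, sex, replicate number and single arrays. Normexp on the median signal and a choroid plexus covariate were chosen after seeing the data.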

Additional observations from a re-analysis of the deposited data

How the results depend on the processing

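The count of the 10 genes that passed in APP/PS1 vehicle over WT was 7 and stayed at 6 or 7 under 11 of 15 alternatives. It was 4 with slide as a fixed block, 0 on slide 1 alone, 1 among male arrays and 4 when only the 2 groups compared were fitted. Leaving out each array in turn gave 6 to 8: H2-D1 was lost without WT replicate 6 (adjusted p = 0.0528) and Tap2 passed without APP/PS1 vehicle replicate 3 (adjusted p = 0.0210). In UA over APP/PS1 vehicle the count was 0, but 3 with normexp on the median signal and 1 with the choroid plexus covariate, and 0 to 0 when each array was left out. In UA over WT it was 0 under every alternative and 0 to 0 without each array.

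Direction turned only for Psmb10 and Tap1, neither of which passed. Psmb10 in APP/PS1 vehicle over WT was -0.0027 with normexp, -0.079 on slide 1 alone, and from -0.058 (without APP/PS1 vehicle replicate 3) to 0.12 when each array was left out. In UA over APP/PS1 vehicle it was -0.015 with slide as a fixed block, -0.012 among males and from -0.053 (without UA replicate 3) to 0.14 without each array. It was -0.046 with the replicate block, which left out APP/PS1 vehicle replicate 7, and also -0.046 without that array alone. In UA over WT it was -0.0087 with slide as a fixed block and from -0.0047 (without UA replicate 3) to 0.14 without each array. Tap1 in UA over APP/PS1 vehicle was 0.17 among males and from -0.19 to 0.00014 (without APP/PS1 vehicle replicate 6) without each array. The cause was not tested.

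Replicate numbers are shared between groups, and same-numbered arrays deviated together in part: the correlation was over 0.1 in 4 of 6 pairs in UA over APP/PS1 vehicle (-0.28 to 0.39) and in 2 of 6 in APP/PS1 vehicle over WT (-0.54 to 0.19) and in UA over WT (-0.55 to 0.15). Since not every pair did, the numbers were not taken to pair the arrays. The replicate block left out APP/PS1 vehicle replicate 7, which has no array of the same number in the other groups. With this block 7 of the 10 genes passed in APP/PS1 vehicle over WT and 0 in each other comparison. The count over all genes in APP/PS1 vehicle over WT was 648 instead of 1296, and it was 746 without replicate 7 and with no block.

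Counts over all genes moved more. For APP/PS1 vehicle over WT, against 1296, they were 804 on the deposited table, 353 without a filter, 240 with slide as a fixed and 2251 as a random block, 22 on slide 1, 1966 with sex as a covariate, 245 among males, 436 with only 2 groups and 389 to 2262 without each array. For UA over APP/PS1 vehicle, against 0, they were 1622 with normexp, 64 with the choroid covariate and 0 to 10 without each array. For UA over WT, against 24, they were 14 with normexp, 41 for probes detected on all arrays, 4 and 99 with slide as a fixed and random block, 9 among males and 16 to 35 without each array. The share of higher calls in APP/PS1 vehicle over WT was 53.0%, but 64.4% with the percentile over probes detected on all arrays and 40.2% on the deposited table. It was 82.2% without a filter and 83.8% with slide as a fixed block, 100% of the 22 calls on slide 1 alone, 47.7% to 70.4% under the other alternatives and 43.1% to 75.3% without each array. Differences on that table are in units of SD and not log2. Normexp on the mean signal was not run, since no file holds that column. Levels of probes near background are the least certain, and all 10 genes lay well above it.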

Other observations

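Psmb10 varied against the other 9 genes. Over the 19 arrays its correlations with them ran from -0.47 to -0.04 (median -0.33), and from -0.74 to -0.19 after group means were subtracted. Among the 36 pairs of the other 9 genes the correlations ran from 0.64 to 0.95 (median 0.84), and from 0.39 to 0.94 within groups. All points share arrays and the scaling of each array. Psmb10 was highest on APP/PS1 vehicle replicate 3, at 5.08, the array on which 7 of the 10 genes were lowest in their group. On that array the 75th percentile of signal over single spots was the lowest of all 19, at 664. On UA arrays Psmb10 was highest on replicate 3, at 4.89, and on WT arrays on replicate 2, at 4.70. Psmb10 had 1 probe on the array, and a probe-specific effect was not tested.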
